A study of Mus musculus with 64 samples.

Results

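Interferon-stimulated genes are the transcripts that cells raise when interferon binds its receptors. The 34 genes described here were listed by symbol, with no threshold on their values but with earlier results of these data known. All 34 were found in the count table of 52636 genes and among the 20249 genes tested. RNA came from 2 fat depots of male mice, the brown fat (brown adipose tissue, BAT) and the white fat beside the epididymis (eWAT), whose *Nampt* carries loxP sites around an exon (the *Nampt* tm1Jtree line). FANKO mice also carry Adiponectin-Cre, a Cre recombinase driven by an adipocyte promoter, so *Nampt*, the enzyme that recycles nicotinamide into NAD+, is deleted in fat cells of both depots, while their wild-type (WT) littermates keep it. The animals were 2 to 4 months old. Tissue was taken at ZT 6, ZT 10, ZT 18 and ZT 22, counted from lights on, 4 samples for every combination of depot, genotype and hour, which makes 16 groups and 64 samples. The labels number the 4 samples of a group but do not name the animals, so p values measure the spread between these samples.

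Type I interferons signal through the receptor chains IFNAR1 and IFNAR2 to the kinases JAK1 and TYK2, which phosphorylate transcription factors that include STAT2. STAT2 and IRF9 are subunits of the complex ISGF3, which binds the interferon-stimulated response element (ISRE) in promoters. Interferon gamma acts through its own receptor and the gamma-activated site (GAS). The induced proteins sense viral RNA, degrade it, block its translation or limit the release of virus, and several of them amplify or restrain the pathway itself.

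RefSeq promoter windows on GRCm38.p6, from 250 bases before to 50 after each start site, matched 27 of the 34 genes by symbol. *Mx1*, *Mx2*, *Oas2*, *Rtp4*, *Ifi27l2a*, *Usp18* and *Dhx58* had no entry. The ISRE core GAAANNGAAA, read on both strands, was found in the windows of 14 of the 27 genes and of 3.99% of all 27025 genes with a window. The GAS core TTCNNNGAA, which reads alike on both strands and can overlap the ISRE core, as it did in *Bst2*, was found for 6 of the 27 and for 9.55% of all genes. *Ifit2* had no ISRE core in its windows, unlike the other members of the IFIT family. The 200 bases before the start site are printed for 7 genes. They show overlapping runs of the core (*Isg15*, *Bst2*), the paired cores of *Ifit1*, *Ifit3* and *Ifit3b*, the member with the largest change (*Oas3*) and a GAS core (*Irf1*). Capitals mark the ISRE core, except in *Irf1*, where they mark the GAS core.
*Isg15* at chr4:156200819-156201018, reverse strand: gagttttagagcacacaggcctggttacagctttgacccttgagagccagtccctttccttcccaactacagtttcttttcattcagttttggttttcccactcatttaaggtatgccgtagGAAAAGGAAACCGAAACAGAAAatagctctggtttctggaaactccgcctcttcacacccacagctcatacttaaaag
*Ifit1* at chr19:34640689-34640888, forward strand: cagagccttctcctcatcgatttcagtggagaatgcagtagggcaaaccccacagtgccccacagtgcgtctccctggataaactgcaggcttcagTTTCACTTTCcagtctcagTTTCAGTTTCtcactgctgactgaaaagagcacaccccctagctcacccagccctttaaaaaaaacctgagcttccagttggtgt
*Ifit3* at chr19:34583329-34583528, forward strand: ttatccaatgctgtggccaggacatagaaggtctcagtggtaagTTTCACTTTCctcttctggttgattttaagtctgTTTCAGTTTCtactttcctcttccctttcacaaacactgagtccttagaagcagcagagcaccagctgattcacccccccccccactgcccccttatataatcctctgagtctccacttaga
*Ifit3b* at chr19:34607757-34607956, forward strand: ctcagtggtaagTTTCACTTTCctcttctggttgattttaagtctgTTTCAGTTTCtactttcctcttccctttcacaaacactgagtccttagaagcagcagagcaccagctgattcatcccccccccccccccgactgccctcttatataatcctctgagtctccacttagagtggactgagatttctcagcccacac
*Oas3* at chr5:120777660-120777859, reverse strand: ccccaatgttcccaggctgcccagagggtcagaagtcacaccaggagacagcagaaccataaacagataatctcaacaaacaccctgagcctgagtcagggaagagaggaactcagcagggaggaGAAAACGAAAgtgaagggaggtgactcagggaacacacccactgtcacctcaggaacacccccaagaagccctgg
*Bst2* at chr8:71537473-71537672, reverse strand: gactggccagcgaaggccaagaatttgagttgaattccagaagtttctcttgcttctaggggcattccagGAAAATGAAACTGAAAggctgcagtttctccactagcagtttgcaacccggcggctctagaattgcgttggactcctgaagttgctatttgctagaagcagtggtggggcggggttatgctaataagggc
*Irf1* at chr11:53769814-53770013, forward strand: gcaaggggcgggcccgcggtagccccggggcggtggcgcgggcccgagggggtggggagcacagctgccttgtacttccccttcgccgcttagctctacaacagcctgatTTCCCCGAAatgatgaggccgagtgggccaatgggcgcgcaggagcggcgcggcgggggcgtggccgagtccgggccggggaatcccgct
In *Isg15* the core occurred 3 times in overlap, with first bases 78, 72 and 66 before the start site. *Ifit3* and *Ifit3b* carried the same pair of cores in the same order. A match of letters is a description and not a bound site.

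Each sample held between 6117343 and 30544847 counts in genes. *Nampt* fell by 2.31 on the log2 scale in FANKO BAT (SE 0.07), from a range of 479 to 1450 CPM (counts scaled to library size) in WT to 109 to 186 in FANKO samples, which did not overlap. In eWAT it fell by 0.50 (SE 0.07), from 112 to 310 in WT to 101 to 131 CPM in FANKO samples. Summed markers of adipocytes were at 10100 to 13300 CPM in WT BAT and 11200 to 19100 in WT eWAT, and those of brown adipocytes at 4610 to 10600 and 14.9 to 30.9 CPM. CPM are scaled by edgeR's TMM factors throughout, and a change is the difference between FANKO and WT of the mean level over the day, in log2.

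All 34 genes were higher in FANKO BAT than in WT BAT at a false discovery rate (FDR) of 0.01, where 33.1% of all genes tested were higher and 33.9% lower. Their median change was 4.91, against 0.00 over all genes, and the adjusted p ranged from 2.24e-39 to 1.79e-05 (edgeR's quasi-likelihood test, Benjamini-Hochberg adjustment over all genes tested, here and below). In 33 of them every one of the 16 FANKO samples lay above every one of the 16 WT samples, a separation seen in 12.5% of all genes. The exception was *Ifi27l2a*. The smallest change was 1.06 and the largest 9.38, and 4 members ranked among the 100 largest increases of all genes.

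Among the transcription factors, *Irf7*, which amplifies interferon transcription, had the largest change. It rose in BAT by 6.70 (SE 0.20), from a lowest, median and highest of 3.39, 4.91 and 9.88 CPM in WT samples to 386, 493 and 709 CPM in FANKO samples. *Stat2* and *Irf9*, the ISGF3 subunits, rose by 2.96 (SE 0.10) and 2.47 (SE 0.09). *Stat2* went from 12, 15.1 and 25.4 CPM to 76.3, 125 and 192 CPM, and *Irf9* from 9.79, 13.9 and 23.9 CPM to 51.4, 73.6 and 111 CPM. *Irf1*, which also answers interferon gamma, changed least of the 4, by 1.48 (SE 0.07), from 23.4, 33.1 and 38.8 CPM to 60.7, 86.2 and 132 CPM. No FANKO sample overlapped a WT sample for any of the 4.

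Of the RNA sensors, the cytosolic helicases *Ifih1* (MDA5), *Ddx58* (RIG-I) and *Dhx58* (LGP2) rose in BAT by 3.26, 2.63 and 3.53, and *Ddx60*, a helicase linked to RIG-I, by 4.08. WT samples held 16.8 to 27.1 CPM of *Ifih1* and FANKO samples 141 to 281. *Ddx58* was at 17.6, 32.6 and 38.9 CPM in WT BAT and at 139, 190 and 269 CPM in FANKO BAT.

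The IFIT proteins, which bind foreign RNA through tetratricopeptide repeats, formed the tightest group, with changes of 6.95 for *Ifit1*, 6.48 for *Ifit2*, 7.21 for *Ifit3* and 6.60 for *Ifit3b*. *Ifit3* rose from 1.48, 4.17 and 11.9 CPM to 312, 586 and 1470 CPM, and its near-identical copy *Ifit3b* from 0.502, 1.44 and 4.24 CPM to 66.4, 135 and 406 CPM. Reads that fit both copies could be divided between them or dropped by the authors' counting, so their separate levels are uncertain.

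The oligoadenylate synthetase (OAS) family, whose active members make the second messenger that activates RNase L, held the largest increase. *Oas3* (chr5:120753098-120777661 on GRCm38) had 0, 0.184 and 0.706 CPM in WT BAT, with no read in 3 samples and 34 in all 16 together, and 64.5, 114 and 166 CPM in FANKO BAT, a change of 9.38 (SE 0.30). The size of that fold rests on those few WT reads. *Oasl1*, an OAS-like protein, rose by 8.06 (SE 0.31), from 0, 0.497 and 1.00 CPM (111 reads in WT BAT) to 78.1, 142 and 327 CPM. *Oasl2*, *Oas1a* and *Oas2* rose by 6.71, 6.40 and 5.24, and *Oasl2* went from 1.51, 2.29 and 3.67 CPM to 157, 240 and 348 CPM. The gap between genotypes was therefore wide for all 5. The WT level was close to the detection limit for *Oas3*, *Oasl1* and *Oas1a*, the last with 124 reads in WT BAT.

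*Isg15*, the ubiquitin-like modifier, rose by 6.24 (SE 0.25), from 0.331, 0.992 and 1.55 CPM to 34.3, 76.8 and 122 CPM. *Usp18*, which removes ISG15 and damps receptor signalling, rose by 5.70. *Herc6*, a ligase for ISG15 in mice, rose by 4.86, from 3.31, 5.28 and 7.42 CPM to 97.4, 151 and 225 CPM. The ubiquitin ligases *Trim30a* and *Dtx3l* rose by 4.60 and 2.45. *Dtx3l* shares 458 exonic bases with *Parp9* on the opposite strand, and whether the counting used strand is not given in the sources used here.

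Of the other antiviral effectors, the dynamin-like GTPase *Mx1* rose by 8.02 (SE 0.30), from 0, 0.537 and 1.98 CPM to 89.7, 139 and 266 CPM, with 110 reads in the WT samples together and none in 2 of them. *Mx2*, which the gene annotation classes as a polymorphic pseudogene, rose by 5.33. *Rsad2* (viperin) rose by 5.25 and its neighbour *Cmpk2*, a nucleotide kinase, by 4.14. *Bst2* (tetherin) rose by 4.51 and *Samd9l* by 4.13, the latter from 19.3, 21.5 and 29.2 CPM to 277, 387 and 598 CPM. *Eif2ak2* (PKR), the kinase that stops translation on double-stranded RNA, changed by 1.55 (SE 0.07), from 26.5, 36.1 and 42.1 CPM to 70.6, 112 and 154 CPM. Of the 7 effectors *Mx1* thus changed most and *Eif2ak2* least.

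In the remaining group *Ifi44* rose by 6.94, *Rtp4* by 4.97, *Xaf1* by 4.07 and *Ifi35* by 2.05, the last from 10.2, 13.4 and 20.2 CPM to 37.4, 55.8 and 84.5 CPM. *Ifi27l2a*, a small mitochondrial membrane protein, rose by 1.06 (SE 0.22), from 45.6, 57.3 and 351 CPM to 134, 175 and 274 CPM. Its genotypes overlapped because of 2 WT samples, at 177 CPM (ZT 6, replicate 4) and 351 CPM (ZT 18, replicate 4). Per kilobase of exon, *Ifi27l2a* had the highest median level of the 34 genes in all 4 combinations of depot and genotype, from 124 CPM per kb in WT BAT to 616 in WT eWAT. The next highest in FANKO BAT were *Ifit3* at 336 and *Bst2* at 253 CPM per kb, and the lowest was *Mx2* at 13.0.

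**Figure D1:**
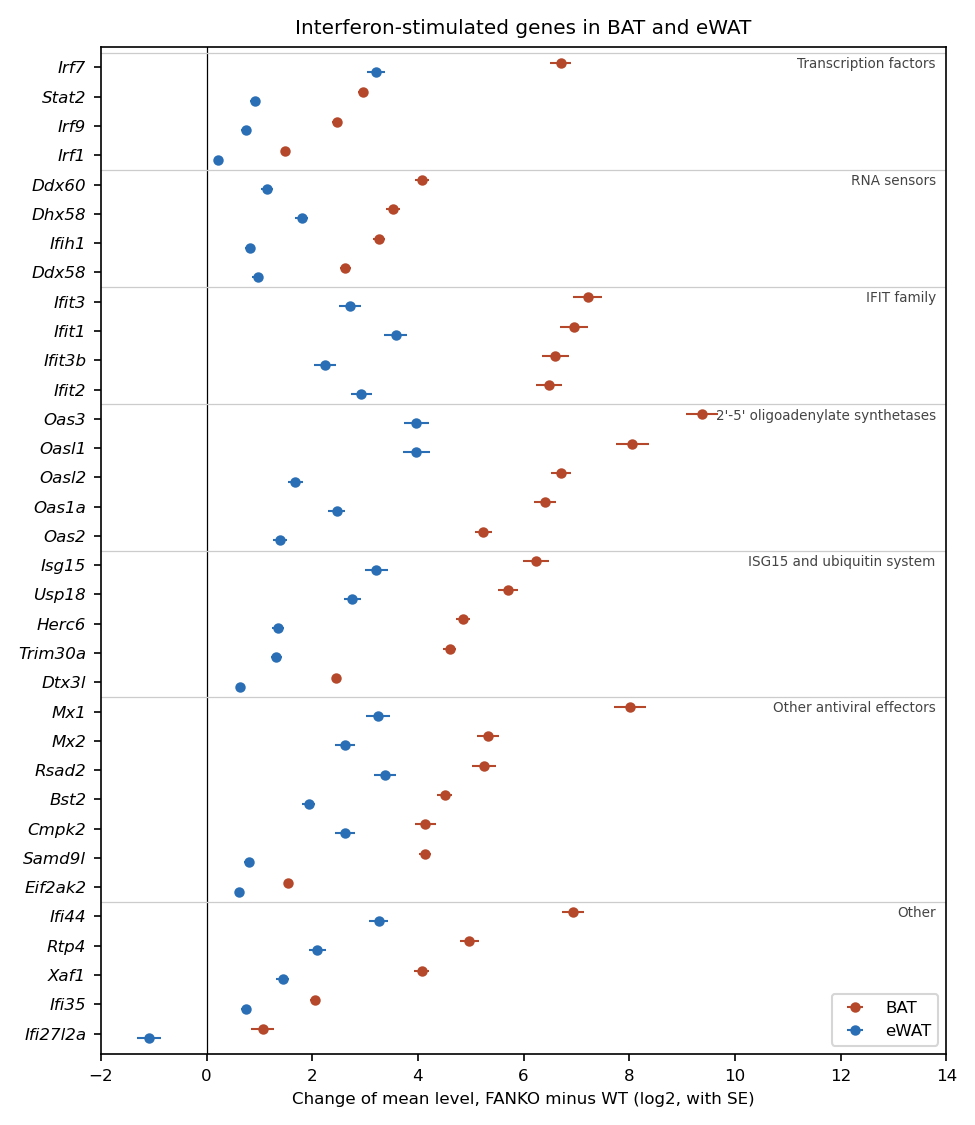
Change of the mean level in FANKO relative to WT mice (log2, points with SE) for the 34 genes, grouped by role, in BAT and eWAT, 16 samples per genotype and depot. Every BAT value lies to the right of the eWAT value of the same gene, and only *Ifi27l2a* in eWAT (-1.09) lies below 0.

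In eWAT 33 of the 34 genes were higher in FANKO mice and 1, *Ifi27l2a*, was lower (27.6% of all genes higher and 22.8% lower), but the call of *Irf1* was lost under 7 alternatives and its sign turned under 1 of them, scaling by library size alone. The median change was 1.87, against -0.02 over all genes, and the largest adjusted p was 0.00487, for *Irf1*. With scaling by library size alone, which moved the median of all genes by -0.25 in eWAT and by 0.59 in BAT, *Irf1* stood at -0.03 (SE 0.09, adjusted p = 0.797). It also lost its call with DESeq2, RLE factors, no filter, a minimum count of 50, and without replicate 2 or replicate 3 of every group. Over the 16 alternatives other than library size alone, its adjusted p ranged from 0.000919 to 0.153. For 15 members every FANKO sample lay above every WT sample (4.57% of all genes, with 1.33% separated the other way), and 11 members were among the 100 largest increases.

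*Oas3* and *Oasl1* again had the largest changes, 3.97 each (SE 0.24 and 0.25). *Oas3* was at 0.460, 0.824 and 1.37 CPM in WT eWAT and at 1.86, 14.6 and 43.6 CPM in FANKO eWAT, and *Oasl1* at 0.821, 1.43 and 1.88 CPM and at 2.97, 26.0 and 75.8 CPM. FANKO samples thus varied more widely than WT samples, all of which they exceeded. *Oas1a*, *Oasl2* and *Oas2* rose by 2.46, 1.68 and 1.39. *Ifit1* rose by 3.58 (SE 0.22), from 3.84, 7.28 and 9.75 CPM to 15.5, 96.5 and 261 CPM, *Ifit2* by 2.93, *Ifit3* by 2.72 and *Ifit3b* by 2.24. *Rsad2* rose by 3.37 (SE 0.21), from 8.28, 13.1 and 28.4 CPM to 33.2, 159 and 439 CPM.

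Of the transcription factors, *Irf7* rose by 3.21 (SE 0.17), from 9.71, 13.6 and 18.2 CPM to 21.8, 154 and 360 CPM. *Stat2* and *Irf9* rose by 0.91 and 0.74 with overlapping samples, *Stat2* from 20.1, 23.7 and 30.9 CPM to 22.8, 45.1 and 78.3 CPM and *Irf9* from 16.4, 23.0 and 26.7 CPM to 22.6, 41.2 and 64.7 CPM. *Irf1* was at 31.3, 39.5 and 49.0 CPM in WT and at 32.0, 45.9 and 56.9 CPM in FANKO samples, a change of 0.22 (SE 0.07). *Irf7* was thus the single factor of the 4 whose 16 FANKO samples all exceeded the WT samples in this depot.

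*Isg15* rose by 3.21 (SE 0.22), from 0.768, 1.49 and 3.32 CPM to 2.21, 16.3 and 49.9 CPM, *Usp18* by 2.76, *Herc6* by 1.35, *Trim30a* by 1.32 and *Dtx3l* by 0.64, the last from 35.2, 48.5 and 77.3 CPM to 41.9, 84.2 and 123 CPM. The sensors *Dhx58*, *Ddx60*, *Ddx58* and *Ifih1* rose by 1.80, 1.15, 0.97 and 0.82. Among the effectors *Mx1* rose by 3.25, *Mx2* and *Cmpk2* by 2.62 each, *Bst2* by 1.93, *Samd9l* by 0.80 and *Eif2ak2* by 0.62, from 28.9, 39.0 and 43.1 CPM to 38.1, 59.2 and 77.6 CPM. *Ifi44*, *Rtp4*, *Xaf1* and *Ifi35* rose by 3.26, 2.10, 1.44 and 0.75. *Ifi27l2a* fell by 1.09 (SE 0.22), from 129, 285 and 1000 CPM to 67.1, 178 and 332 CPM, with overlapping samples.

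The change was larger in BAT than in eWAT for all 34 genes, by the test of the difference itself (32.2% of all genes in that direction). That test treated BAT and eWAT samples as independent, and the labels do not say whether they share animals. The median difference was 2.93, from 0.93 for *Eif2ak2* to 5.41 for *Oas3*, with an SE of 0.50 for the latter. The 3 smallest p values belonged to *Samd9l*, with a difference of 3.33 (SE 0.14, adjusted p = 9.28e-29), *Oasl2* with 5.03 (SE 0.23) and *Herc6* with 3.51 (SE 0.16). Levels in eWAT for these 3 were 65.6, 74.5 and 98.6 CPM in WT and 63.8, 138 and 282 CPM in FANKO samples for *Samd9l*, 9.20, 15.6 and 21.6 against 14.6, 53.7 and 130 CPM for *Oasl2*, and 11.9, 13.7 and 15.8 against 16.8, 37.6 and 72.7 CPM for *Herc6*. All 3 thus started from a higher WT level in eWAT and ended lower in FANKO eWAT than in FANKO BAT. The order of the genes was alike in both depots. Across the 34 genes, which are not independent of each other, Pearson's r between the changes in BAT and in eWAT was 0.89 and Spearman's rho 0.90, and without *Ifi27l2a* 0.88 and 0.89.

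**Figure D2:**
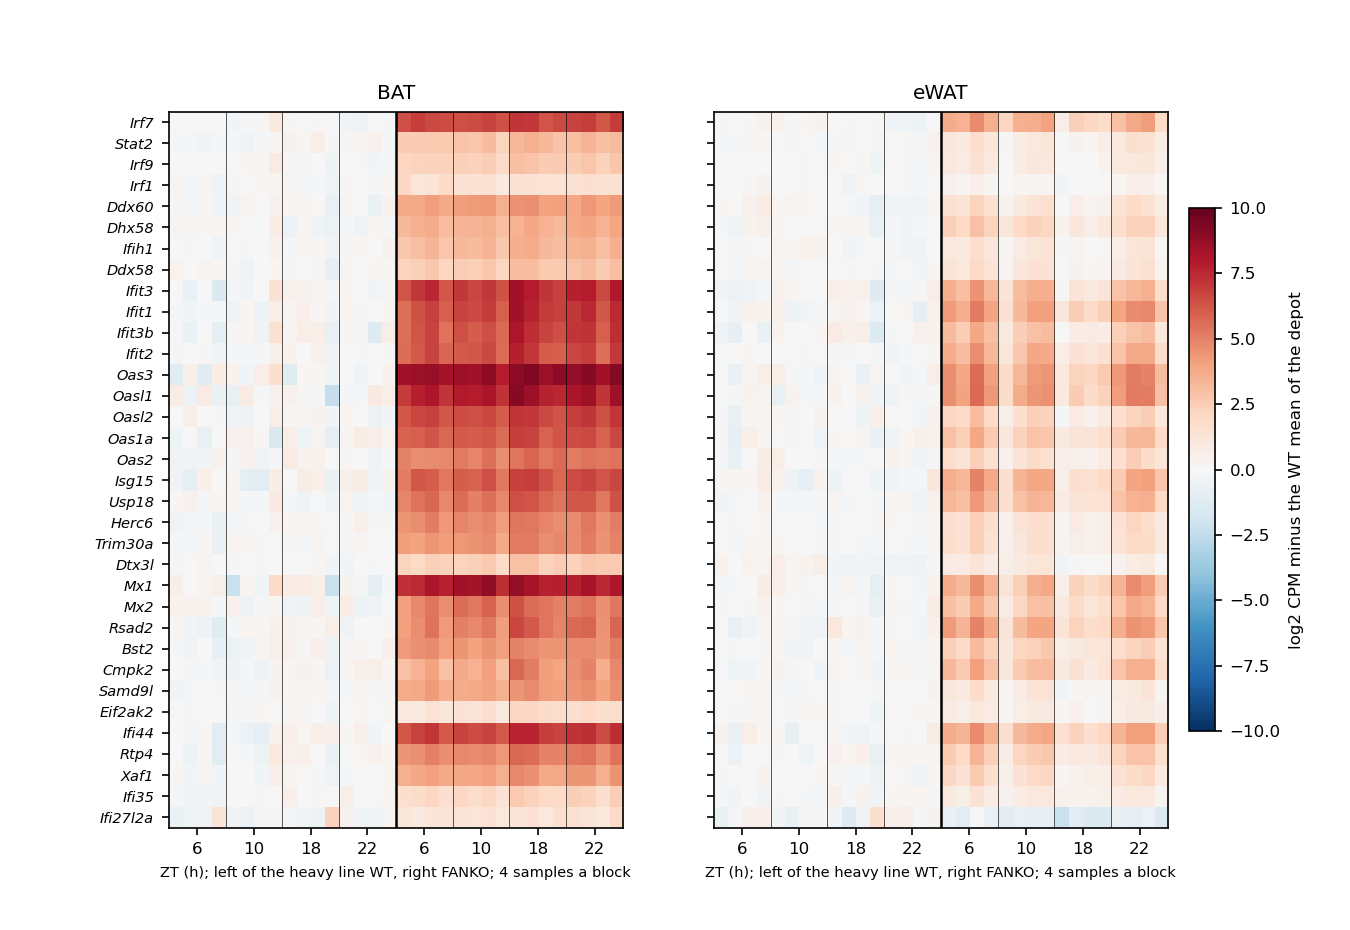
Level of each of the 34 genes in each of the 64 samples, as log2 CPM minus the WT mean of the depot, with 4 samples per time point in columns. FANKO BAT is raised throughout, while FANKO eWAT is paler at ZT 18 than at the other 3 time points and varies between samples of the same time point.

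The daily course was examined within each depot, and its difference between depots was not tested. In FANKO eWAT the time-point mean was lowest at ZT 18 for all 34 genes and highest at ZT 6 for 31, where 26.7% and 25.3% of all genes had their lowest and highest mean. The difference between the highest and the lowest time-point mean had a median of 1.59 log2 CPM, from 0.39 for *Irf1* to 2.72 for *Oasl1*, against 0.35 over all genes. In WT eWAT it was 0.28 for the members and 0.37 over all genes. A rhythm, tested as a cosine and a sine of 24 h, was called at an FDR of 0.01 for 31 members in FANKO eWAT (6.77% of all genes), the others being *Irf1*, *Ifi35* and *Ifi27l2a*. In WT eWAT it was called for 1 member, *Dtx3l* (9.38% of all genes). With 4 time points the course between ZT 10 and ZT 18 was not sampled.

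*Usp18* had the smallest p in FANKO eWAT (adjusted p = 2.2e-06). Its 4 samples were at 63.6, 49.8, 131 and 60.4 CPM at ZT 6, at 20.3, 48.2, 68.3 and 62.2 at ZT 10, at 11.3, 15.1, 16.2 and 17.4 at ZT 18 and at 45.3, 69.1, 72.8 and 25.7 at ZT 22. All 4 samples at ZT 18 were lower than the 12 others, and still above the WT samples of that time point, at 7.69, 5.84, 6.34 and 5.40 CPM. *Oas3* followed the same course, with 23.4, 13.4, 43.6 and 15.9 CPM at ZT 6, 3.62, 9.34, 18.2 and 19.6 at ZT 10, 1.86, 4.32, 3.73 and 5.68 at ZT 18 and 19.2, 32.9, 29.3 and 8.45 at ZT 22. At ZT 10 its replicate 1 lay within the ZT 18 range. *Dhx58*, the third, had time-point means of 33.1, 22.9, 10.9 and 23.2 CPM (SD 10.2, 6.86, 2.60 and 8.81, n = 4).

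*Isg15* fell from 19.3, 15.7, 49.9 and 22.4 CPM at ZT 6 to 2.21, 5.12, 4.57 and 6.32 CPM at ZT 18, and stood at 5.10, 16.9, 23.1 and 23.1 CPM at ZT 10 and 9.37, 24, 27.6 and 11.1 CPM at ZT 22. *Irf7* had means of 211, 153, 48.7 and 146 CPM (SD 99.9, 68.1, 20.2 and 85.9, n = 4) at ZT 6, ZT 10, ZT 18 and ZT 22.

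**Figure D3:**
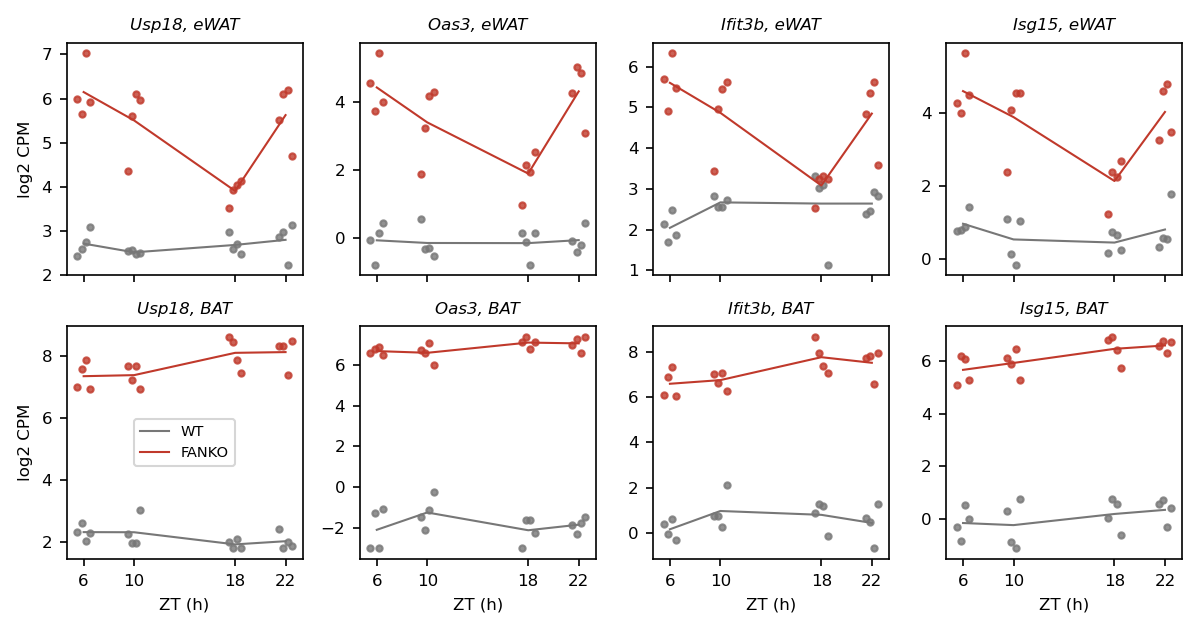
log2 CPM of *Usp18*, *Oas3*, *Ifit3b* and *Isg15* in each sample (points, 4 per time point and genotype, spread sideways for visibility) with time-point means (lines) in eWAT and BAT. In eWAT the FANKO line dips at ZT 18, where the *Ifit3b* samples of both genotypes overlap, and in BAT the genotypes stay apart at every time point.

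The FANKO and WT courses themselves differed at an FDR of 0.01 for 5 members in eWAT, *Ifit3b*, *Ifit3*, *Rsad2*, *Oasl2* and *Usp18* (1.15% of all genes), with adjusted p from 0.00214 to 0.00628. For the other members a rhythm called in FANKO and not in WT eWAT was not shown to differ between genotypes. At an FDR of 0.05 the count was 19 (3.03% of all genes). *Ifit3b* was at 51.4, 30.2, 80.7 and 44.3 CPM at ZT 6 and 5.65, 9.39, 9.75 and 9.35 CPM at ZT 18 in FANKO samples, against 4.28, 3.11, 5.45 and 3.50 CPM and 9.78, 7.96, 8.41 and 2.07 CPM in WT samples. Its WT level at ZT 18 thus overlapped the FANKO level. *Ifit3* went from 201, 129, 363 and 159 CPM at ZT 6 to 17.5, 39.8, 31.2 and 39.9 CPM at ZT 18, and *Rsad2* from 261, 145, 439 and 209 CPM to 34.6, 67.1, 47.1 and 56.8 CPM. The count of 5 rested on single samples. It was 1 without FANKO eWAT ZT 6 replicate 3, 2 without FANKO eWAT ZT 18 replicate 1, and 0 to 16 with 1 replicate number left out of every group. The count of 31 rhythms in FANKO eWAT was 30 without either of those samples, 17 without replicate 3 of every group, and 10 (3.60% of all genes) without 4 samples that stood apart, chosen after the data were seen and described below.

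*Dtx3l* was the exception in WT eWAT. Its WT samples were at 64.1, 50.3, 63.6 and 59.0 CPM at ZT 6, 77.3, 60.2, 64.5 and 75.3 at ZT 10, 41.7, 36.9, 40.3 and 36.3 at ZT 18 and 36.7, 38.1, 35.2 and 46.6 at ZT 22 (adjusted p = 8.44e-06). WT samples at ZT 6 and ZT 10 were all above those at ZT 18 and ZT 22. In FANKO samples the means were 95.9, 98.8, 49.9 and 76.0 CPM (SD 18.3, 18.6, 6.33 and 18.7, n = 4), and the courses of the genotypes were not distinguished (adjusted p = 0.296). The next smallest p values in WT eWAT belonged to *Ddx60*, at 11.4, 21.9 and 35.3 CPM over the day (adjusted p = 0.0334), and *Ifih1*, at 37.4, 48.5 and 61.9 CPM (adjusted p = 0.173).

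Compared at each time point, FANKO eWAT exceeded WT eWAT for 32 members at ZT 6 (16.9% of all genes higher and 10.1% lower), 32 at ZT 10 (16% higher and 8.46% lower) and 32 at ZT 22 (12.6%), and for 13 at ZT 18 (8.54%). The median change was 2.51, 2.05 and 2.03 at the first 3 of these and 0.74 at ZT 18. The 13 members that rose at ZT 18 were *Irf7*, *Ifi44*, *Ifit1*, *Oas3*, *Mx1*, *Mx2*, *Oas1a*, *Isg15*, *Oasl1*, *Bst2*, *Usp18*, *Rsad2* and *Dhx58*. *Oas3* had the largest of these changes, 2.20 (SE 0.46, adjusted p = 0.000302), against 4.85 at ZT 6. *Samd9l* and *Irf1* stood at 0.07 (SE 0.19) and 0.02 (SE 0.14) at that time point, and *Ifi27l2a* was lower, by 1.85 (SE 0.44, adjusted p = 0.00121). That call was lost without FANKO eWAT ZT 18 replicate 1 and without replicate 1 or replicate 4 of every group. Groups of 4 did not overlap for 32, 28, 21 and 32 members at ZT 6, ZT 10, ZT 18 and ZT 22 (21.6%, 22.2%, 13.5% and 16.4% of all genes). The count of 13 was 5 without replicate 2 and 6 without replicate 4 of every group.

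**Figure D4:**
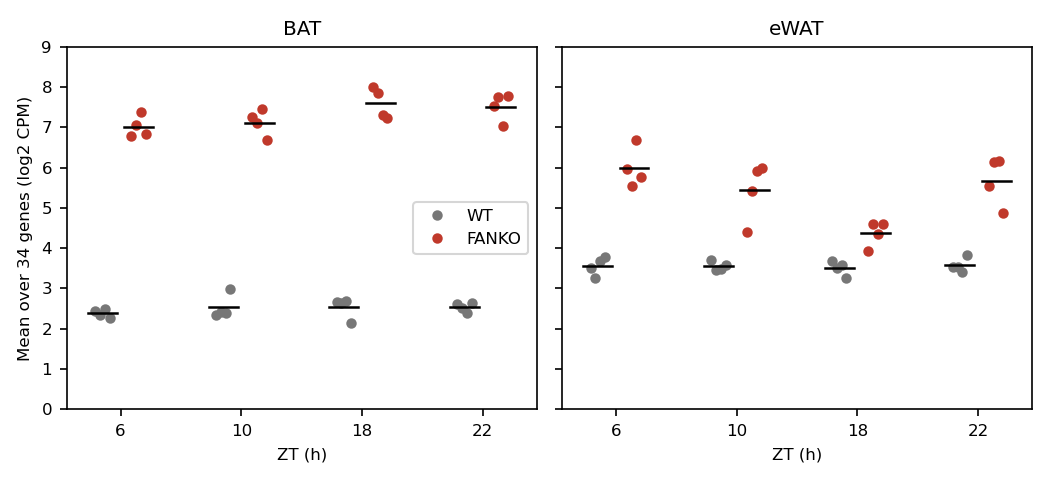
Mean log2 CPM over the 34 genes in each sample (points) with the mean of the 4 samples of a group (bars), by ZT. FANKO BAT samples lie between 6.68 and 8.01 and WT BAT samples between 2.13 and 2.99, and FANKO eWAT samples between 3.92 and 6.70, lowest at ZT 18.

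In FANKO BAT few members had a course that passed the test. As a description of the means, the time-point mean was highest at ZT 18 for 23 members and at ZT 22 for 9 (27.7% and 21% of all genes). It was lowest at ZT 6 for 26 (27.3% of all genes). The median difference between highest and lowest mean was 0.63 log2 CPM, against 0.48 in WT BAT and 0.33 over all genes in FANKO BAT. A rhythm was called for 3 members in FANKO BAT (2.84% of all genes), *Eif2ak2*, *Cmpk2* and *Trim30a*. In WT BAT edgeR called 0 of the 34 (13.9% of all genes), as did DESeq2 and limma-voom. By the same edgeR test the unadjusted p was below 0.05 for 3 members in WT BAT and for 25 in FANKO BAT. The share of all genes below that value is not given here, and the members moved together from sample to sample. These counts are therefore a description and do not show a rhythm of the set. *Eif2ak2* was at 73.8, 70.6, 97.3 and 77.0 CPM at ZT 6, 96.1, 85.8, 113 and 71.1 at ZT 10, 154, 152, 131 and 121 at ZT 18 and 116, 142, 111 and 125 at ZT 22 (adjusted p = 1.99e-05). Every sample of the dark phase, at ZT 18 and ZT 22, was higher than all but 1 of the samples at ZT 6 and ZT 10. *Cmpk2* was at 89.5, 133, 195 and 87.9 CPM at ZT 6 and 625, 417, 207 and 179 CPM at ZT 18 (adjusted p = 0.00140). *Trim30a* was at 179, 161, 201 and 175 CPM at ZT 6 and 343, 361, 239 and 262 CPM at ZT 18 (adjusted p = 0.00690). The count of 3 was 1 without replicate 1 or without replicate 2 of every group and 10 without replicate 3.

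The courses of the genotypes differed in BAT for 1 member, *Irf9* (2.76% of all genes, adjusted p = 0.00741). Its FANKO samples were at 62.3, 63.8, 67.8 and 67.6 CPM at ZT 6, 71.3, 70.2, 75.9 and 51.4 at ZT 10, 111, 100, 82.5 and 86.8 at ZT 18 and 82.8, 94.1, 68.9 and 95 at ZT 22. WT samples were at 13.5, 14, 14 and 14.4 CPM at ZT 6, 14, 15.5, 16.2 and 23.9 at ZT 10, 14.7, 12, 13.7 and 9.79 at ZT 18 and 13.6, 11.8, 11.4 and 12.7 at ZT 22. The FANKO mean was highest at ZT 18 and the WT mean at ZT 10, where replicate 4 was above the rest. Without that WT sample, or without any 1 replicate number, *Irf9* did not pass. *Eif2ak2* and *Ddx58* came next (adjusted p = 0.0185 and 0.0778). At each time point 33, 34, 33 and 34 members were higher in FANKO BAT at ZT 6, ZT 10, ZT 18 and ZT 22 (24.4%, 23.3%, 21.5% and 22.6% of all genes), *Ifi27l2a* being the exception at ZT 6 and ZT 18. The groups of 4 did not overlap for the same counts of members, 33, 34, 33 and 34, where 25.4%, 26.7%, 20.8% and 24.8% of all genes were so separated.

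The spread between samples of the same time point was larger in FANKO than in WT eWAT for 33 of the 34 genes, *Ifi27l2a* being the exception, against 43.5% of all genes. Pooled over the time points, the SD of log2 CPM had a median of 0.56 in FANKO and 0.27 in WT eWAT for the members, and 0.25 and 0.27 over all genes. It was largest for *Oasl1*, at 0.94 in FANKO and 0.32 in WT eWAT, and small for *Irf1*, at 0.16 and 0.13. In BAT it was larger in FANKO samples for 18 members (42.2% of all genes), with a median of 0.33 in each genotype. *Mx1*, near the detection limit in WT BAT, had an SD of 1.15 there and of 0.48 in FANKO BAT. The tests shared 1 estimate of spread per gene over all 64 samples. For members that vary more in FANKO eWAT, p values of rhythms and course differences in that depot can therefore be too small.

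**Figure D5:**
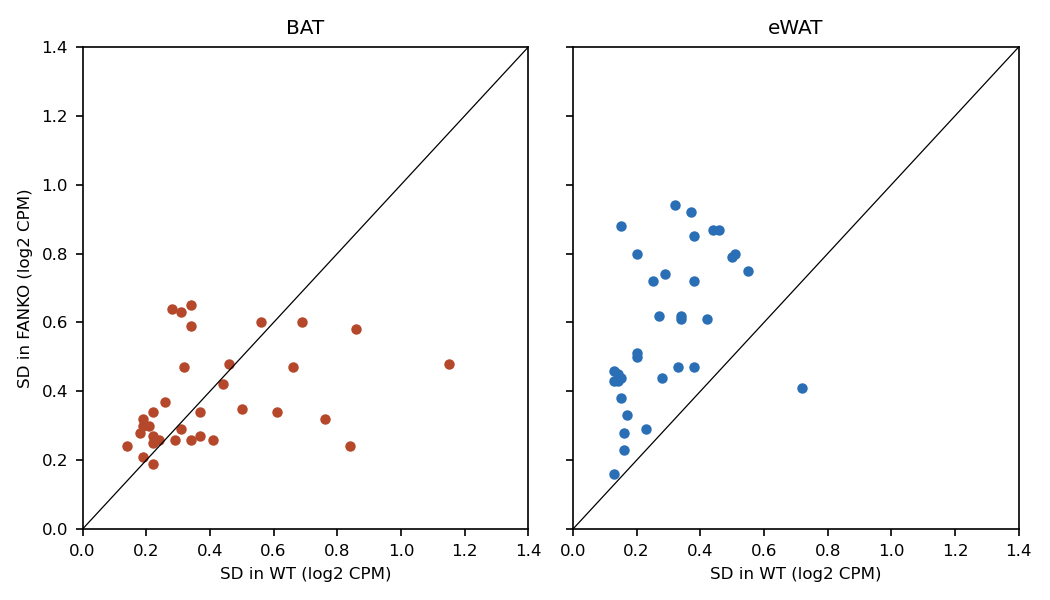
SD of log2 CPM between samples of the same time point, pooled over the 4 time points, for the 34 genes, in WT (x) and FANKO (y), with the line of equality. In eWAT 33 points lie above the line, and in BAT 18.

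The members moved together from sample to sample. In FANKO eWAT, ZT 6 replicate 3 was the highest of the 16 samples for 30 members and ZT 18 replicate 1 the lowest for 27. Their mean levels over the 34 genes were 6.70 and 3.92 log2 CPM. ZT 10 replicate 1 (4.39) and ZT 22 replicate 4 (4.88) also lay below the other 3 samples of their groups, which were at 5.43 or above. These are the 4 samples left out above. In FANKO BAT, ZT 18 replicates 1 and 2 were highest for 18 and 10 members and ZT 10 replicate 4 lowest for 17.

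Markers of other cell types also differed between the genotypes, and in bulk tissue fewer cells of a type cannot be told apart from less RNA per cell. In BAT the 6 macrophage markers were all higher in FANKO mice, and their sum went from 86.2 to 163 CPM in WT to 468 to 1150 CPM in FANKO samples. The 4 dendritic cell markers went from a sum of 1.92 to 5.85 to one of 36.2 to 114 CPM, the 6 T cell markers from 0.872 to 3.58 to 40.3 to 128 CPM and the 3 NK cell markers from 0.161 to 1.5 to 16.9 to 33.7 CPM, each with all markers higher. The 4 B cell markers were also all higher (0.611 to 4.90 against 7.66 to 64.7 CPM), as were 2 of the 3 neutrophil markers tested (0.873 to 2.53 against 9.69 to 23.1 CPM, *Ly6g* at 0 in WT BAT). Sums of adipocyte and brown adipocyte markers were lower, at 4650 to 8110 and 1310 to 3530 CPM in FANKO BAT. Of the single markers, 5 of 6 and 4 of 6 were called lower. The brown adipocyte sum in eWAT was 14.9 to 30.9 CPM in WT and 46.7 to 98.3 CPM in FANKO samples (3 markers higher, 1 lower). Of the 6 adipocyte markers 4 were lower and 1 higher there. Endothelial markers were lower in BAT for 3 of 4, and mesothelial markers lower in eWAT for 3 of 3. In eWAT the macrophage sums overlapped (537 to 831 in WT and 514 to 883 CPM in FANKO samples, 2 of 6 markers higher), while all 4 dendritic cell markers (8.30 to 14.1 against 14.6 to 39.3 CPM), 4 of 6 T cell markers (3.53 to 10.4 against 7.17 to 20.7 CPM) and all 3 NK cell markers (1.27 to 6.73 against 5.35 to 22.3 CPM) were higher and all 4 B cell markers lower. Of the 4 plasmacytoid dendritic cell markers 3 were higher in FANKO BAT, *Siglech* by 4.27 (SE 0.26), *Ly6d* by 6.01 (SE 0.36) and *Ccr9* by 0.98 (SE 0.14), while their sum, most of it *Tcf4*, was 119 to 172 CPM in WT and 132 to 175 CPM in FANKO BAT. None of the 4 was called in eWAT at an FDR of 0.01. The 4 stromal markers were all higher in FANKO BAT (268 to 442 against 405 to 840 CPM) and all lower in FANKO eWAT (1370 to 1770 against 728 to 994 CPM). The mitochondrial share of counts was 16.8% to 40.7% in WT and 7.48% to 24.7% in FANKO BAT, and 3.88% to 10.7% in WT and 6.11% to 14.6% in FANKO eWAT. Within FANKO eWAT, ZT 6 replicate 3 also had the highest sums of macrophage (883), dendritic cell (39.3), T cell (20.7) and NK cell (22.3 CPM) markers. The NK cell sum was 8.11 to 22.3 CPM at ZT 6 and 5.52 to 6.75 CPM at ZT 18, and the dendritic cell sum 17.6 to 39.3 and 14.9 to 21.8 CPM. Over the 16 FANKO eWAT samples Spearman's rho between the mean level of the members and the sum was 0.86 for NK cell, 0.84 for dendritic cell, 0.75 for neutrophil, 0.74 for macrophage, 0.70 for T cell, -0.15 for plasmacytoid dendritic cell and -0.28 for B cell markers. Over the 16 FANKO BAT samples it was 0.66, -0.36, -0.14, -0.50, -0.34, -0.06 and -0.14 in the same order. For total counts it was 0.08 in eWAT and 0.18 in BAT. These are descriptions of samples that share their time points. The part of these cells and of the mitochondrial share in the changes of the members was not tested.

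Of 57 other genes of the pathway, 48 were tested, and 35 were higher and 5 lower in FANKO BAT (33.1% and 33.9% of all genes), 31 higher and 4 lower in FANKO eWAT (27.6% and 22.8% of all genes). Among the ligands, *Ifnb1* (interferon beta) had 1 read in all 16 WT BAT samples and 296 in the FANKO BAT samples, a ratio of 217 at equal depth (exact 95% interval 38.7 to 8620, counting error only). In eWAT it had 0 reads in WT and 20 in FANKO samples. Against a floor of 3 reads for the WT group the FANKO level was 7.72-fold higher, without the counting error of the 20 reads. *Ifng* (interferon gamma) had 1 and 179 reads in BAT, a ratio of 131 (23.3 to 5220), and 21 and 64 in eWAT, a change of 1.66 (SE 0.39, adjusted p = 0.000271). The listed interferon alpha genes *Ifna1*, *Ifna2*, *Ifna4* and *Ifna5* had at most 7 reads in any combination of depot and genotype and were not tested. The same held for *Ifnl2* and *Ifnl3* (lambda), *Ifne* (epsilon) and *Ifnz* (zeta). Other interferon alpha genes were not examined. *Ifnk* (interferon kappa) had 183 reads in WT and 88 in FANKO eWAT and fell by 0.87 there (SE 0.20, adjusted p = 0.000191), and it stood at 0.14 (SE 0.24) in BAT, with 50 and 70 reads. The ligand values thus rested on few reads and did not all have the same direction.

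The receptor chain *Ifnar1* stood at 0.02 (SE 0.04) in BAT and 0.08 (SE 0.04) in eWAT without passing the test, and *Ifnar2* at -0.03 (SE 0.05) in BAT, while it rose by 0.54 (SE 0.05) in eWAT. Of 11 genes of signal transduction 10 were higher in BAT and 6 in eWAT. *Socs1*, a feedback inhibitor of the kinases, rose by 4.10 in BAT and 0.74 in eWAT. Of 20 genes of nucleic acid sensing 16 were higher in each depot. *Zbp1*, a sensor of Z-form nucleic acids, rose by 6.96 and 2.54, and *Cgas*, the sensor of cytosolic DNA, by 2.85 and 0.79. Its adaptor *Sting1* rose by 2.66 in BAT and stood at 0.12 (SE 0.08) in eWAT. *Mavs*, the adaptor of the RNA helicases, stood at -0.10 (SE 0.06) in BAT and rose by 0.69 in eWAT. *Irf3*, the factor activated below both adaptors, fell by 0.29 in BAT and stood at -0.02 (SE 0.04) in eWAT, and the endosomal receptor *Tlr3* rose by 2.02 and 0.46. Of 9 genes that limit self nucleic acids 8 were tested, and 5 were higher in each depot. A rhythm in FANKO eWAT was called for 9 of the 48 (6.77% of all genes), among them *Tlr3* and *Zbp1*.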

How the data were processed

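RNA from BAT and eWAT was sequenced after rRNA depletion with a stranded kit. The authors aligned reads with STAR 2.5.3a to GRCm38 and deposited raw counts per gene from featureCounts 1.5.3; its options for strand and for reads that fit several places are not given in the sources used here. All 64 columns were used. Symbols came from GENCODE M21 (52489 of 52636 identifiers). Groups came from the labels.

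Counts were analysed in R 4.3.3 with edgeR 4.0.16: TMM factors, filterByExpr over the 16 groups (minimum count 10, minimum total 15, 20249 genes kept), and 1 quasi-likelihood fit with a mean, cosine and sine (period 24 h) for each depot and genotype. Comparisons at single time points used a 16-group fit. Calls were made at a Benjamini-Hochberg FDR of 0.01 over all genes. log2 CPM used a prior count of 2. The steps were tested on simulated counts. All 34 genes passed the filter, and on WT BAT samples alone 32 would have done (not *Oas3* and *Mx1*).

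All 34 genes are named with both changes. Sample values are given for the 4 largest and 4 smallest changes in each depot, the 3 smallest p values of each rhythm test and of the depot difference, and *Isg15*, *Irf7*, *Ifit3*, *Ifit3b*, *Stat2* and *Irf9*. The genes and lists were chosen with earlier results of these data known. Alternatives used DESeq2 1.42.0, limma 3.58.1 (voom), other factors, filters, thresholds and designs, and left out each replicate number. The values of 1 gene of the pathway list are not reported here.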

Additional observations from a re-analysis of the deposited data

Results flagged for a closer look

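Of 544 sets of 4 samples (34 genes in 16 groups), 42 (7.72%) had a highest or lowest sample beyond Dixon's 95% critical value for 4 samples. That value is passed by about 1 in 20 sets where values are independent and normally distributed. Here CPM were used without logs and the genes shared their samples, so the share does not measure an excess. Among the values printed here, *Ifi27l2a* was far above the other samples of its group in WT BAT ZT 18 replicate 4 (351 CPM), WT BAT ZT 6 replicate 4 (177 CPM) and WT eWAT ZT 18 replicate 4 (1000 CPM). FANKO eWAT ZT 6 replicate 3 stood above its group for *Usp18* (131 CPM) and *Dtx3l* (123 CPM), and FANKO eWAT ZT 18 replicate 1 below its group for *Ifit3b* (5.65 CPM). The mean log2 CPM over the 34 genes was apart in WT BAT ZT 10 replicate 4 (2.99, highest) and WT BAT ZT 18 replicate 4 (2.13, lowest).

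The change in BAT exceeded that in eWAT for every one of the 34 genes by the test of the difference (edgeR, FDR 0.01). For the transcription factors the log2 difference was 1.26 for *Irf1*, 3.50 for *Irf7*, 1.73 for *Irf9* and 2.05 for *Stat2*. For the RNA sensors it was 2.45 for *Ifih1*, 1.66 for *Ddx58*, 1.73 for *Dhx58* and 2.92 for *Ddx60*. For the IFIT genes it was 3.37 for *Ifit1*, 3.55 for *Ifit2*, 4.49 for *Ifit3* and 4.37 for *Ifit3b*. For the OAS genes it was 3.94 for *Oas1a*, 3.85 for *Oas2*, 5.41 for *Oas3*, 4.08 for *Oasl1* and 5.03 for *Oasl2*. For the genes of ISG15 and ubiquitin it was 3.03 for *Isg15*, 2.94 for *Usp18*, 3.51 for *Herc6*, 1.81 for *Dtx3l* and 3.29 for *Trim30a*. For the other effectors it was 4.77 for *Mx1*, 2.71 for *Mx2*, 1.87 for *Rsad2*, 1.53 for *Cmpk2*, 2.57 for *Bst2*, 0.93 for *Eif2ak2* and 3.33 for *Samd9l*. For the remaining genes it was 3.68 for *Ifi44*, 2.16 for *Ifi27l2a*, 2.63 for *Xaf1*, 2.87 for *Rtp4* and 1.30 for *Ifi35*. *Ifi27l2a* was the 1 gene whose changes had opposite signs in the depots.

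The daily course differed between the genotypes for *Irf9* in BAT (adjusted p = 0.00741) and in eWAT for *Ifit3b* (adjusted p = 0.00214), *Ifit3* (0.00268), *Rsad2* (0.00326), *Oasl2* (0.0061) and *Usp18* (0.00628), by edgeR's quasi-likelihood test.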

How the results depend on the processing

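Over the alternatives listed under processing, 340 counts of members called stayed within 1.5 times the main count and 38 did not, and of single-gene changes 1285 kept direction and call, 6 lost the call and 1 reversed, all 7 of *Irf1* in eWAT, which stood at -0.03 with library size alone. The mean-level and depot-difference counts moved in none. Rhythms in FANKO BAT (3) numbered 10 at an FDR of 0.05, 5 with DESeq2, 7 with limma-voom, 5 with a minimum count of 50, 10 with separate fits for each depot, and 1 to 10 with 1 replicate number left out. Rhythms in WT eWAT (1) numbered 2 at an FDR of 0.05, and those in FANKO eWAT (31) 17 to 31 with 1 replicate number left out. Course differences in BAT (1) numbered 2 at an FDR of 0.05 and with DESeq2, and 0 with limma-voom, library size alone, no filter, time point as a factor and each replicate number left out. Those in eWAT (5) numbered 19 at an FDR of 0.05, 13 with DESeq2, 3 with limma-voom and with library size alone, 0 with separate fits, and 0 to 16 with 1 replicate number left out. At ZT 18 in eWAT the 13 higher genes became 20 at an FDR of 0.05, 8 with limma-voom and 5 to 14 with 1 replicate number left out, and the 1 lower gene 0 to 1. At ZT 22 in eWAT the 0 lower genes became 1 at an FDR of 0.05 and 0 to 1 with 1 replicate number left out. The next 4 alternatives were chosen after seeing the data. Without FANKO eWAT ZT 6 replicate 3, without FANKO eWAT ZT 18 replicate 1 and without all 4 FANKO eWAT samples that stood apart, rhythms in FANKO BAT numbered 5, 5 and 8 and course differences in eWAT 1, 2 and 0. Without those 4, rhythms in FANKO eWAT numbered 10. The lower gene at ZT 18 in eWAT numbered 0 without FANKO eWAT ZT 18 replicate 1 and 0 without the 4. Without WT BAT ZT 10 replicate 4 the course differences in BAT numbered 0. The cause of these moves was not tested beyond the smaller number of samples where samples were left out. Same-numbered samples were not treated as pairs, since not every pair's correlation of deviations was over 0.1. Between genotypes 6 of 32 same-numbered and 6 of 96 other pairs were (medians 0.05 and -0.02), and between depots 10 of 32 and 5 of 96 (medians 0.05 and -0.02). Samples of the same animal could also fall short of 0.1, so these values do not exclude pairing between depots. With the replicate block, rhythms in FANKO BAT numbered 5, and no other count moved by over 1.5 times. That block held a shared term for each replicate number and none for an animal, so it does not test pairing. Counts of 34 to 124 reads in all 16 WT BAT samples limit the folds of *Oas3*, *Oasl1*, *Mx1* and *Oas1a*.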

Other observations

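WT ZT 18 replicate 4 was the sample with the highest *Ifi27l2a* in both depots, at 351 CPM in BAT and 1000 CPM in eWAT, and it was also the lowest of the 16 WT samples for 12 of the 34 genes in BAT and for 11 in eWAT. The labels do not say whether both tissues came from 1 animal.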
